A study of Mus musculus with 14 samples.

Results

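The tripartite motif (Trim) genes encode a large family of proteins that share a RING finger, 1 or more B-box zinc fingers and a coiled coil, followed by a variable C-terminal domain. They were taken here as all genes whose symbol is Trim followed by a digit, and each gene was represented by its transcript with the highest mean count. The rule found 64 genes with 87 transcripts among 20337 genes with a symbol, and 2 further Trim symbols were not analysed here. Most Trim proteins are ubiquitin ligases: the RING finger recruits an E2 enzyme that carries ubiquitin, the coiled coil joins copies of the protein, and the C-terminal domain, most often a SPRY domain, binds the target. Several members are induced by interferon and act in antiviral defence, others bind chromatin, microtubules or membranes, and a few lack the RING finger.

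The libraries were made from full-grown oocytes arrested at the germinal vesicle stage, taken from hormone-primed females 4 to 6 weeks old, with 20 oocytes from 3 or 4 animals in each library. In the Ago2 series, 3 libraries came from Ago2 fl/fl females, which carry 2 floxed alleles and served as wild type. A further 3 came from Ago2 ADH females (Ago2 fl/ADH; Cre/+), in which Cre under the oocyte-specific Zp3 promoter removes the floxed allele. The allele left makes a product that binds small RNAs but cannot cleave targets. The other 2 were labelled Ago2 null, which in the paper's breeding scheme are Ago2 fl/fl females that also carry this Cre. In the Dicer series, 3 libraries were Dicer WT and 3 Dicer KO. By the paper, the KO is specific to oocytes and removes the RNase III enzyme that makes both microRNAs and endogenous siRNAs. Cre acts in growing oocytes, so earlier stages were not deleted, and the mice came from crosses of several transgenic strains.

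Total counts per library ran from 29380403 to 58285057. For each 100 counted reads, htseq-count set aside 55.7 to 59.7 entries as aligning to several places in Ago2 fl/fl. The tally was 157 to 166 in Ago2 ADH and Ago2 null, 38.8 to 53.6 in Dicer WT and 93.9 to 119 in Dicer KO. Up to 100 alignments were kept per read, so 1 read may add several entries and the tally is not a share of reads. Ago2 stood at 23.96 to 25.4 TMM-normalized counts per 1e6 reads (CPM) in Ago2 fl/fl, 12.4 to 13.7 in Ago2 ADH and 5.30 to 7.17 in Ago2 null. Dicer1 stood at 745 to 779 CPM in Dicer WT and 1679 to 1943 in Dicer KO; this count spans the whole transcript, not the deleted exons, so it is no check of the deletion and the Dicer groups are named as labelled. All 11 oocyte markers were detected. Leukocyte markers summed to at most 0.277 CPM, red cell markers to at most 0.0996, theca and stroma markers to at most 1.12, and 12 cumulus and granulosa cell markers to between 59.5 and 106. By the lane numbers in the names of the deposited tables, which the sample labels do not repeat, each Ago2 genotype was on a sequencing lane of its own, so in that series effects of lane and of genotype cannot be separated, and each Dicer library had its own lane.

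The sequences shown first are the promoters of the members on which the results turn: Trim30a and its neighbour Trim30d, which had opposite differences in the Ago2 mutants, and the 3 most abundant members. They are RefSeq windows of 300 bases, 250 before and 50 after the gene start, on build GRCm38.p6 and the minus strand. The Trim30a window is chr7:104465144-104465443 and the Trim30d window chr7:104507800-104508099. Capitals mark the core of the interferon-stimulated response element, which is GAAA, any 2 bases and GAAA, read on either strand.
Trim30a: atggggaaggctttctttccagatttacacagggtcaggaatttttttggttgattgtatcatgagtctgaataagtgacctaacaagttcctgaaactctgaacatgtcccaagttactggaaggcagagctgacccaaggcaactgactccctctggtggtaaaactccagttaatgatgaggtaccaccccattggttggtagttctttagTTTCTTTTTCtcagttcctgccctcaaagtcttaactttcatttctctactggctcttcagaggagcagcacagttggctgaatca
Trim30d: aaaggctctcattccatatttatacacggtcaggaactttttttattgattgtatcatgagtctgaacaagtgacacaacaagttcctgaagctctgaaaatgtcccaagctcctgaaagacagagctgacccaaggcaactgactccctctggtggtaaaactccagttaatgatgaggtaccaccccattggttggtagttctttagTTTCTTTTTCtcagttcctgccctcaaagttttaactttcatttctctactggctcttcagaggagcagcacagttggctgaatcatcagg
Each window held 1 match, starting 36 bases before the Trim30a start and 41 bases before the Trim30d start. With an offset of 5 bases, 276 of 295 aligned bases were identical (93.6%). The same core was found in 1126 of all 32817 promoter windows (3.43%) and in 9 of the 62 windows of the 49 members in the promoter table (14.5%). Those 9 windows belonged to Trim2, Trim12a, Trim12c, Trim21, Trim26, Trim30a, Trim30d and Trim34a, several of which are copies of each other.
Trim60 and Trim61 share a gene start and so share the window chr8:65018639-65018938, and the Trim75 window is chr8:64987595-64987894. Capitals mark TAATTG on either strand, a homeobox element that the oocyte factor NOBOX is known to bind.
Trim60 and Trim61: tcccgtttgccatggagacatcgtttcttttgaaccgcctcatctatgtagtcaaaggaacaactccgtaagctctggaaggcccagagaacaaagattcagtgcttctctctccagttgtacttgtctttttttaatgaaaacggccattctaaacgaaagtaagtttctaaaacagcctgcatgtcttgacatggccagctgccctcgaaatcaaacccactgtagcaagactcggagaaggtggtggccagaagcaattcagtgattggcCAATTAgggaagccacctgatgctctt
Trim75: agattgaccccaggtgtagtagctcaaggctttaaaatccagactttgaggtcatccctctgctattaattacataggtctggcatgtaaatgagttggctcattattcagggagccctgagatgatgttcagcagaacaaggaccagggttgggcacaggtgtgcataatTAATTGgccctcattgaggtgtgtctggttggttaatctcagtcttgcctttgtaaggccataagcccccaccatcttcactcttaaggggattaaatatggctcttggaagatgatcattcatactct
Each window held 1 match, at base 24 of the Trim60 and Trim61 transcripts and 79 bases before the Trim75 start. TAATTG was found in 2626 of the 32817 windows (8.002%) and in 7 of the 62 member windows (11.3%). The search also covered the TATA box, TATAAA (13.6% of all windows, 12.9% of member windows) and the E-box, CANNTG (72.3% and 79.0%), and such matches describe the letters only.

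Trim transcripts spanned a wide range of levels in oocytes. On the scale of CPM per kilobase of transcript, averaged over the 6 control libraries (Ago2 fl/fl and Dicer WT), 12 members stood above 10, 14 between 1 and 10, 14 between 0.1 and 1, and 21 above 0 but at or below 0.1. The remaining 3, Trim34b, Trim42 and Trim55, had no count in any library, which allows up to 3 counts per library, or 0.0515 to 0.102 CPM. Trim55 belongs to the muscle RING finger (MuRF) genes, and the other MuRF members, Trim54 and Trim63, were also in the lowest classes.

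The most abundant members were Trim61, Trim60 and Trim75, little-characterised genes that lie together on chromosome 8, with Trim75 at 64981651 to 64987644, Trim60 at 64998448 to 65018688 and Trim61 at 65012976 to 65018688. Their levels in controls averaged 376.5, 191.9 and 125.6 CPM per kilobase, with ranges of 361.5 to 390.5, 181 to 205 and 114 to 133, so these ranges did not overlap. The 3 genes made up 62.4% to 64.7% of the summed level of all members in every library, mutants included. Trim60 and Trim61 overlap, and 1.04% of the 50-base windows of Trim61 occur in Trim60, so reads from those windows cannot be told apart.

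Next came Trim13, a RING protein anchored in the endoplasmic reticulum, at 104 CPM per kilobase and Trim24, a bromodomain protein of the TIF1 subfamily that reads histone H3 tails, at 93.7. Over the 6 controls together the ranges overlapped, 114 to 133 for Trim75, 86.6 to 120 for Trim13 and 82.0 to 106 for Trim24, but within every control library Trim75 stood above Trim13 and Trim13 above Trim24. In the Dicer WT libraries alone the ranges did not overlap, while in Ago2 fl/fl the lowest Trim13 value (86.59) lay just under the highest of Trim24 (86.65). In all Ago2 ADH and Dicer KO libraries Trim13 stood below Trim24. In Ago2 null Trim13 stood below Trim24 in replicate 1 (66.0 against 72.9) but above it in replicate 2 (71.5 against 68.7). Trim27, a nuclear ligase first found fused to the RET kinase, stood at 42.5 with a range of 36.4 to 49.9.

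**Figure D1:**
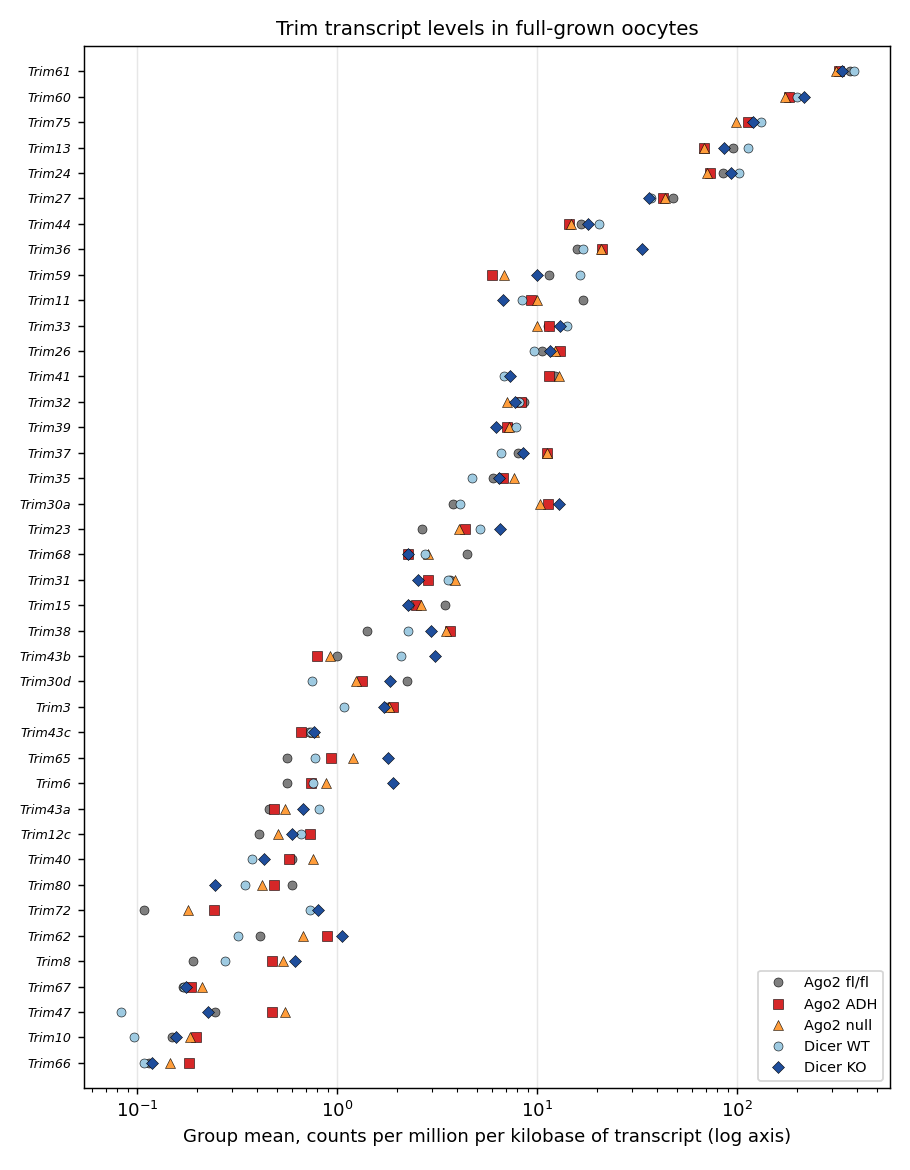
Group means of 40 Trim members with a control mean above 0.1, in CPM per kilobase of transcript on a log axis, 1 row per gene and 1 symbol per group. Trim61, Trim60 and Trim75 stand highest, at control means of 376.5, 191.9 and 125.6.

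The copies of the chromosome 7 cluster were mostly low. Trim30a ranged over all libraries from 13.2 to 55.7 CPM and Trim30d from 1.14 to 5.18, while Trim30b stayed between 0.0344 and 0.628. Trim12c ranged from 1.37 to 3.37 CPM, Trim12a from 0 to 0.428, Trim34a from 0 to 0.0689, and Trim34b was at 0. The Trim43 genes on chromosome 9 ranged from 0.843 to 2.04 CPM for Trim43a, 1.44 to 7.91 for Trim43b and 1.07 to 2.11 for Trim43c, and none was called in any comparison. Windows of 50 bases that occur in another gene made up 48.1% to 59.3% of the Trim43 transcripts, 34.4% of Trim12c, 15.4% of Trim30d and 6.53% of Trim30a. Reads from such windows could be split or set aside in counting, so values of these copies are uncertain. The shares count only exact matches to annotated transcripts, so they do not bound that uncertainty.

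To ask about loss of AGO2 cleavage, Ago2 ADH oocytes were compared with Ago2 fl/fl oocytes. Ago2 ADH oocytes also carried Cre and kept only 1 Ago2 allele, with Ago2 at 12.4 to 13.7 CPM against 23.96 to 25.4. The paper also reported lower microRNA levels in both Ago2 mutants. Effects of lost cleavage, lower Ago2 level and Cre cannot be told apart in this comparison. Of the 64 members, 42 had enough counts to be tested and 16 were called at a false discovery rate of 1% (38.1%), 10 higher and 6 lower. Over all transcripts tested, 40.7% were called, 20.5% higher and 20.1% lower, so the members' share was near the background. The median log2 fold change was 0.10 over the tested members and 0.01 over all genes. Values below are CPM in replicates 1 to 3, log2 fold changes carry the standard error, and each adjusted p comes from the quasi-likelihood test of edgeR, corrected by the Benjamini-Hochberg method over all transcripts. In RNA from whole oocytes, fewer cells with a transcript and less of it per cell cannot be told apart.

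The member with the firmest increase was Trim30a (chromosome 7, 104409025 to 104465193), an interferon-inducible gene whose product restrains Toll-like receptor signalling. Its level was 13.2, 15.1 and 14.6 CPM in Ago2 fl/fl and 42.6, 41.7 and 44.2 in Ago2 ADH. Every mutant library stood well above every control library, a 3.09-fold increase (log2 fold change 1.63 ± 0.08, adjusted p = 4.08e-12).

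Trim38, another regulator of Toll-like receptor signalling, rose from 2.14, 1.86 and 2.32 CPM to 5.43, 5.59 and 5.36 (1.42 ± 0.17, adjusted p = 9.06e-07). Trim62, a ligase linked to epithelial polarity, rose from 1.69, 1.60 and 1.37 CPM to 3.01, 3.80 and 3.24 (1.15 ± 0.21, adjusted p = 0.000116). For both genes the groups did not overlap. Trim8, which acts in cytokine and NF-kB signalling, stood at 0.895, 0.658 and 0.495 CPM against 2.44, 1.26 and 1.41 (1.37 ± 0.34, adjusted p = 0.00225), but the call was lost without Ago2 fl/fl replicate 3 or Ago2 ADH replicate 1.

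Trim23, which carries an ARF GTPase domain, rose from 10.7, 10.03 and 13.2 CPM to 19.6, 15.8 and 20.5 (0.77 ± 0.12, adjusted p = 3.64e-05). Trim12c, a relative of the retroviral restriction factor Trim5, stood at 1.70, 1.37 and 1.49 CPM against 3.37, 1.99 and 2.89 (0.90 ± 0.24, adjusted p = 0.00383). Its call was lost without Ago2 fl/fl replicates 2 or 3 or Ago2 ADH replicates 1 or 3. The other members called higher were Trim37, Trim36, Trim26 and Trim2, with log2 fold changes of 0.52, 0.46, 0.33 and 1.68, the last 2 named after their values were seen. The Trim2 call rested on a mean of 31.5 normalized counts and was lost in 4 of 14 alternatives.

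Among the members that fell, Trim59 (chromosome 3, 69035292 to 69044742), a transmembrane RING protein, went from 33.4, 34.1 and 33.5 CPM to 17.2, 16.6 and 18.8 (-0.90 ± 0.08, adjusted p = 2.67e-08). Trim11, a ligase of nuclear protein quality control, went from 38.7, 39.4 and 37.4 CPM to 21.3, 22.8 and 19.0 (-0.82 ± 0.08, adjusted p = 5.88e-08). Trim68, a coactivator of the androgen receptor, went from 10.1, 11.8 and 10.3 CPM to 5.87, 5.21 and 5.09 (-0.95 ± 0.12, adjusted p = 3.55e-06). In each case all 3 mutant libraries lay below all 3 controls.

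Trim13 (chromosome 14, 61598226 to 61610287) fell by less, from 140, 159 and 163 CPM to 108, 111 and 112 (-0.44 ± 0.06, adjusted p = 6.06e-06). Trim24 stood at 332, 350 and 347 CPM in controls and 294, 299 and 301 in mutants (-0.16 ± 0.05, adjusted p = 0.00812). This small difference passed the threshold in 8 of 14 alternative analyses, 1 of them the looser rate of 5%. Leaving out Ago2 fl/fl replicates 2 or 3 or Ago2 ADH replicates 1 or 2 ended the call. No member fell by 2-fold or more, while 5 rose by at least 2-fold, among them Trim2 and Trim8, whose calls were lost in some alternatives. The paper reported that increases also outnumbered decreases at this cut over the whole transcriptome, so the skew is no trait of Trim genes alone. The share of all transcripts beyond this cut was not computed here.

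The member that moved against its neighbouring copy was Trim30d (chromosome 7, 104470014 to 104507853), which lies 4.82 kb from Trim30a. Its level was 3.55, 4.12 and 5.18 CPM in Ago2 fl/fl and 2.46, 2.94 and 2.27 in Ago2 ADH. The groups did not overlap and the log2 fold change was -0.69 ± 0.19 (adjusted p = 0.00498). The call was lost without Ago2 fl/fl replicates 2 or 3 or Ago2 ADH replicates 1 or 3, with values from -0.82 to -0.54 across all alternatives.

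Oocytes deleted for Ago2 were then examined by comparing Ago2 null with the same Ago2 fl/fl libraries, again with Cre in the mutants only. This contrast is of the deletion. Like the Ago2 ADH contrast, it is not of cleavage alone. Ago2 reads remained at 5.30 to 7.17 CPM in Ago2 null and the protein was not measured here. The comparisons share their controls, so their values are given side by side only. Here 46 members were tested and 16 were called (34.8%), 8 higher and 8 lower, against 37.2% of all transcripts tested (18.1% higher and 19.1% lower). Trim30a stood at 36.7 and 41.2 CPM in the 2 Ago2 null libraries (1.47 ± 0.09, adjusted p = 1.69e-09). Trim38 stood at 4.36 and 6.08 CPM (1.34 ± 0.21, adjusted p = 5.04e-05), and Trim23 at 16.3 and 18.4 (0.65 ± 0.13, adjusted p = 0.000401). Both null libraries were above all controls for these 3 genes.

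Trim65, a ligase known to act on TNRC6 proteins of the microRNA pathway, was at 1.498, 1.60 and 2.04 CPM in controls and 3.52 and 3.81 in Ago2 null (1.13 ± 0.23, adjusted p = 0.000563). In Ago2 ADH it was at 2.53, 2.25 and 3.79 CPM, which did not pass the test (0.78 ± 0.24, adjusted p = 0.0108) but did under DESeq2, under both other count filters, with the replicate block and without Ago2 ADH replicate 2. Its exons overlap an exon of Trim47 on the same strand. Trim8 was at 1.41 and 2.46 CPM in Ago2 null (1.52 ± 0.36, edgeR adjusted p = 0.00197). This call was lost with the replicate block and without Ago2 fl/fl replicate 3 or Ago2 null replicate 2.

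Trim59 fell to 18.7 and 21.5 CPM (-0.72 ± 0.09, adjusted p = 5.16e-06) and Trim11 to 22.7 and 22.5 (-0.73 ± 0.08, adjusted p = 1.21e-06). Trim13 fell to 107 and 116 CPM (-0.44 ± 0.07, adjusted p = 9.78e-05), again below all controls. Trim68 was at 8.02 and 5.62 CPM (-0.62 ± 0.15, adjusted p = 0.00306), and Ago2 fl/fl replicate 2 or Ago2 null replicate 2 left out ended its call.

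Trim30d was at 2.45 and 2.31 CPM in Ago2 null (-0.82 ± 0.21, edgeR adjusted p = 0.00444). The replicate block ended the call, as did leaving out any library other than Ago2 fl/fl replicate 1. Its other transcript, which shares most reads, did not pass in Ago2 null (-0.75, edgeR adjusted p = 0.0106). Trim75 was at 339 and 308 CPM against 374, 403 and 398 (-0.24 ± 0.06, adjusted p = 0.00337), and Trim61 at 626 and 610 against 715, 720 and 750 (-0.21 ± 0.05, adjusted p = 0.00407). The other members called were Trim36, Trim37 and Trim35, which were higher at 0.44, 0.51 and 0.37, and Trim24, which was lower at -0.23. The Trim35 call was lost with all 5 groups in 1 fit, with the replicate block and without Ago2 fl/fl replicate 3 or Ago2 null replicate 1. The Trim75, Trim61 and Trim24 calls were lost with the replicate block and without Ago2 fl/fl replicates 2 or 3 or Ago2 null replicate 2. The Trim61 call was also lost with at least 10 counts required in every library. In Ago2 ADH, Trim75 and Trim61 did not pass the test: Trim75 was at 377, 356 and 382 CPM (-0.03 ± 0.05) and Trim61 at 624, 671 and 625 (-0.14 ± 0.04). Trim61 passed in 6 of 14 alternatives, DESeq2 among them, but 1 of the 6 was only the looser false discovery rate of 5%.

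Ago2 ADH and Ago2 null were compared directly to ask whether the catalytic mutant and the deletion differed. None of the 44 members tested was called by edgeR's quasi-likelihood test, 5 had an unadjusted p under 0.05, DESeq2 called 0, and 0.119% of all transcripts were called. The member with the smallest p was Trim75 (edgeR log2 fold change 0.20 ± 0.07, adjusted p = 0.295), singled out here after its values were seen.

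In the Dicer series, which asks about loss of all DICER products, 43 members were tested and 11 were called (25.6%), 9 higher and 2 lower, against 34.5% of all transcripts (16.7% higher and 17.8% lower). Trim62 rose from 1.27, 1.14 and 1.22 CPM in Dicer WT to 3.64, 4.44 and 3.88 in Dicer KO (1.71 ± 0.25, adjusted p = 1.76e-05). Trim30a rose from 16.5, 16.6 and 13.9 CPM to 41.5, 48.0 and 55.7 (1.63 ± 0.11, adjusted p = 7.84e-10), again 3.09-fold. For both genes the lowest mutant library was more than double the highest control.

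Trim65 rose from 1.84, 2.17 and 3.15 CPM to 3.97, 5.97 and 6.56 (1.20 ± 0.25, adjusted p = 0.000647). Trim36, a microtubule-binding ligase of the COS box subfamily, rose from 47.2, 40.0 and 42.8 CPM to 91.6, 83.5 and 82.1 (0.98 ± 0.08, adjusted p = 7.92e-09). The groups were apart for both genes. Trim6, whose product acts in interferon induction, was at 2.59, 3.96 and 2.15 CPM against 7.38, 3.31 and 11.2 (1.33 ± 0.32, edgeR adjusted p = 0.00221). Its groups overlapped, and the call was lost under DESeq2, with the replicate block and without Dicer WT replicates 1 or 3 or Dicer KO replicate 3.

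Trim30d went the other way from the Ago2 series: it was at 1.45, 1.72 and 1.14 CPM in Dicer WT and 3.58, 3.38 and 3.60 in Dicer KO (1.29 ± 0.26, adjusted p = 0.000481). Of the 2 members that fell, Trim59 went from 51.2, 46.8 and 46.7 CPM to 29.3, 28.6 and 30.4 (-0.72 ± 0.08, adjusted p = 9.36e-07) and Trim13 from 194, 180 and 177 to 144, 145 and 132 (-0.39 ± 0.06, adjusted p = 5.68e-05). The remaining members called higher were Trim37, Trim35 and Trim3, at log2 fold changes of 0.37, 0.45 and 0.66, the last 2 named after their values were seen. The Trim3 call was lost when any 1 library was left out, with the replicate block and with no filter on low counts. The Trim35 call was lost without Dicer WT replicates 2 or 3 or Dicer KO replicate 2 (0.31 to 0.55 across all alternatives).

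**Figure D2:**
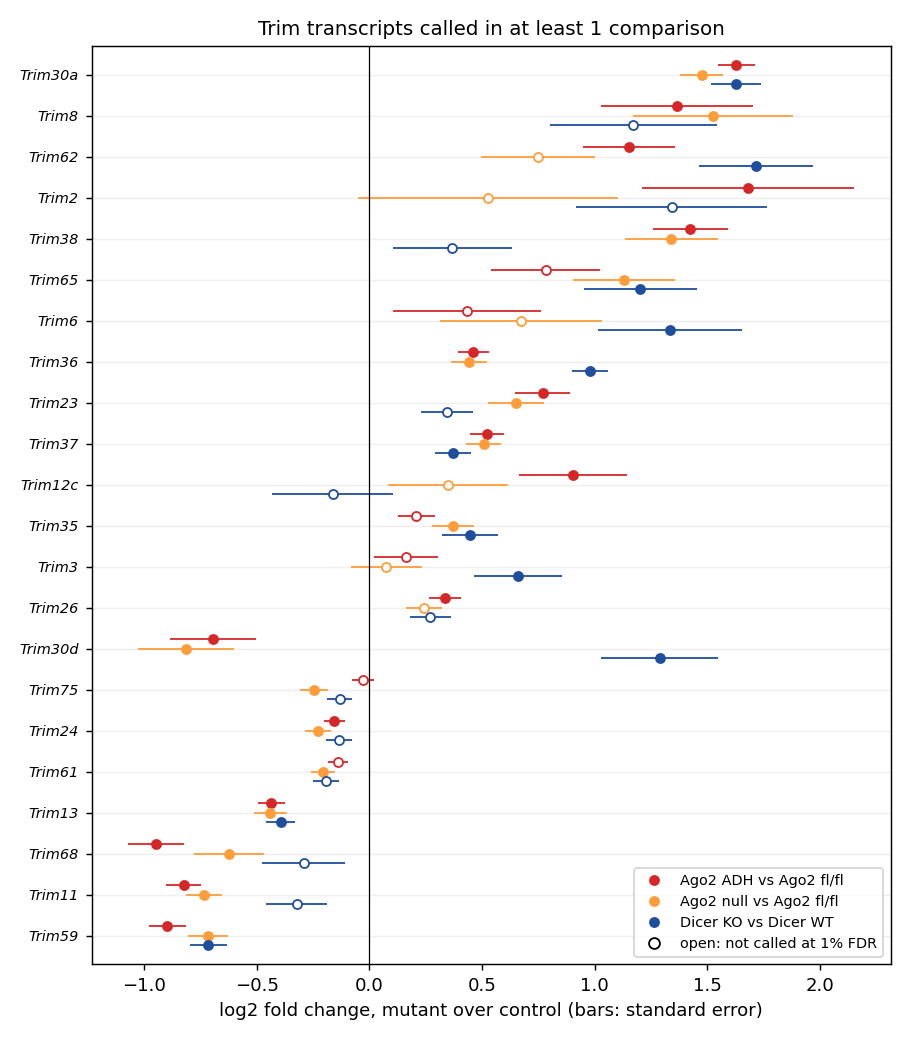
Log2 fold changes of the 22 members called in at least 1 of the comparisons with controls, with standard errors, 1 colour per comparison, filled where called at a false discovery rate of 1% and open where not. Trim30a lies between 1.47 and 1.63 in all comparisons, and Trim30d is the member with calls in both directions.

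Across the comparisons with controls, 6 members were called in all: Trim30a, Trim36 and Trim37 were higher in each, Trim13 and Trim59 were lower in each, and Trim30d was lower in both Ago2 mutants and higher in Dicer KO. Trim37, a ligase that controls centriole assembly, stood at 48.6, 46.7 and 41.1 CPM in Ago2 fl/fl, 58.04, 70.5 and 61.1 in Ago2 ADH, 61.3 and 65.2 in Ago2 null, 36.7, 37.6 and 37.0 in Dicer WT and 45.3, 47.8 and 50.9 in Dicer KO. Its mutant libraries lay above their own controls in each series, with log2 fold changes of 0.52 ± 0.08, 0.51 ± 0.08 and 0.37 ± 0.08. The calls of Trim30a, Trim36, Trim37, Trim13 and Trim59 held under every alternative analysis run. In the Ago2 comparisons, 12 members were called in both and all 12 had the same direction, with the controls shared. Shares of all transcripts called in both Ago2 comparisons, or in all comparisons, were not computed here. Over all transcripts, the paper reported a high overlap between the Ago2 mutants and none in opposite directions.

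**Figure D3:**
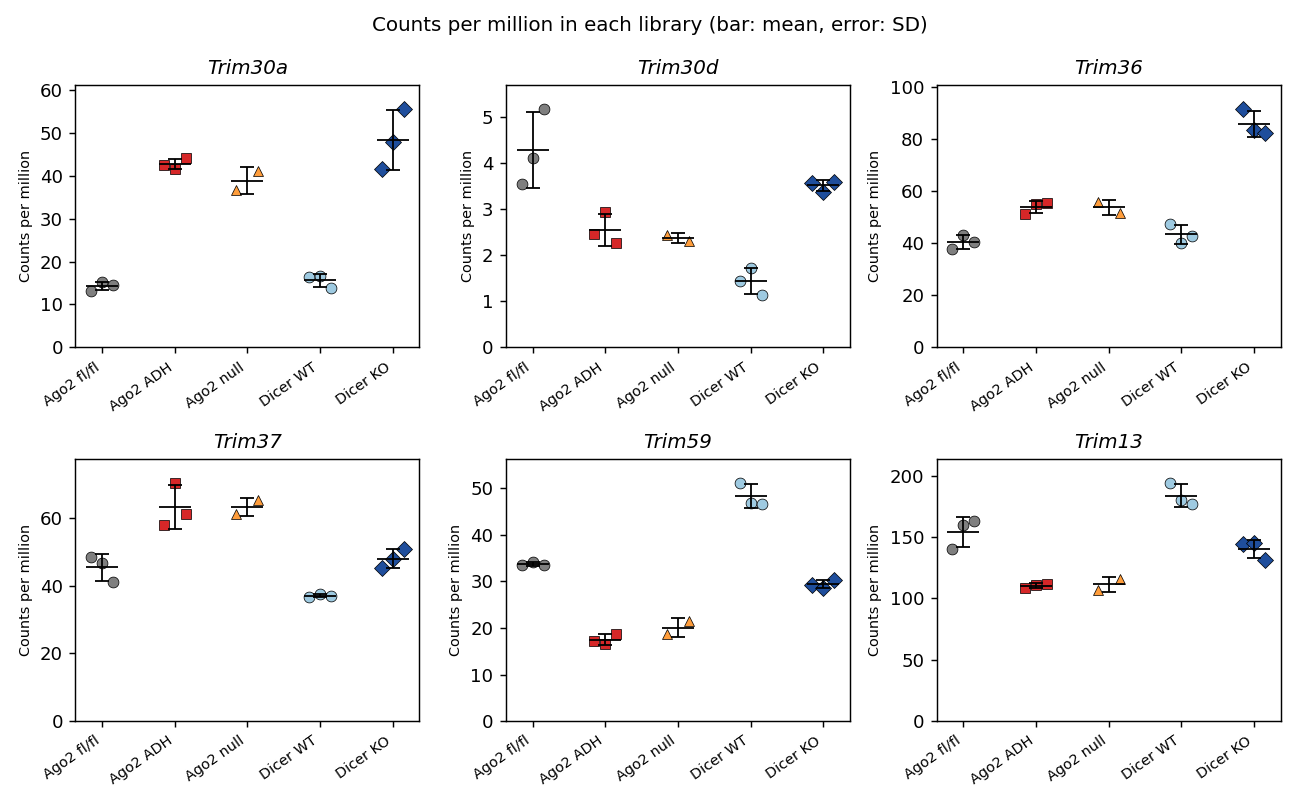
CPM of the 6 members called in all comparisons with controls, 1 point per library on an axis starting at 0, with group means as bars and SD as error bars. Trim30a stands at 13.2 to 16.6 in all control libraries and 36.7 to 55.7 in all mutant libraries, whereas Trim30d differs between the control groups as well.

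Whether the Ago2 ADH and Dicer KO effects differed was tested as an interaction over 12 libraries. Of 47 members tested, 2 were called, both with a lower value in the Ago2 contrast, against 3.55% of all transcripts (2.35% in that direction). For Trim30d the difference of effects was -2.03 ± 0.31 on the log2 scale (adjusted p = 0.000137). The controls themselves stood apart, at a mean of 4.28 CPM in Ago2 fl/fl and 1.44 in Dicer WT, while the mutants stood at 2.56 in Ago2 ADH and 3.52 in Dicer KO. Breeding and sequencing of the series cannot be told apart in the control levels, and their part in the Trim30d difference was not tested.

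For Trim36 the difference was -0.57 ± 0.11 (adjusted p = 0.0012). Its level was 37.8, 43.1 and 40.3 CPM in Ago2 fl/fl, 51.3, 54.9 and 55.4 in Ago2 ADH and 55.8 and 51.6 in Ago2 null. Control means were 40.4 and 43.4 CPM in the Ago2 and Dicer series, and the rise was 1.38-fold in Ago2 ADH, 1.36-fold in Ago2 null and 1.97-fold in Dicer KO. Trim30a gave a difference of -0.05 ± 0.14 (adjusted p = 0.87).

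**Figure D4:**
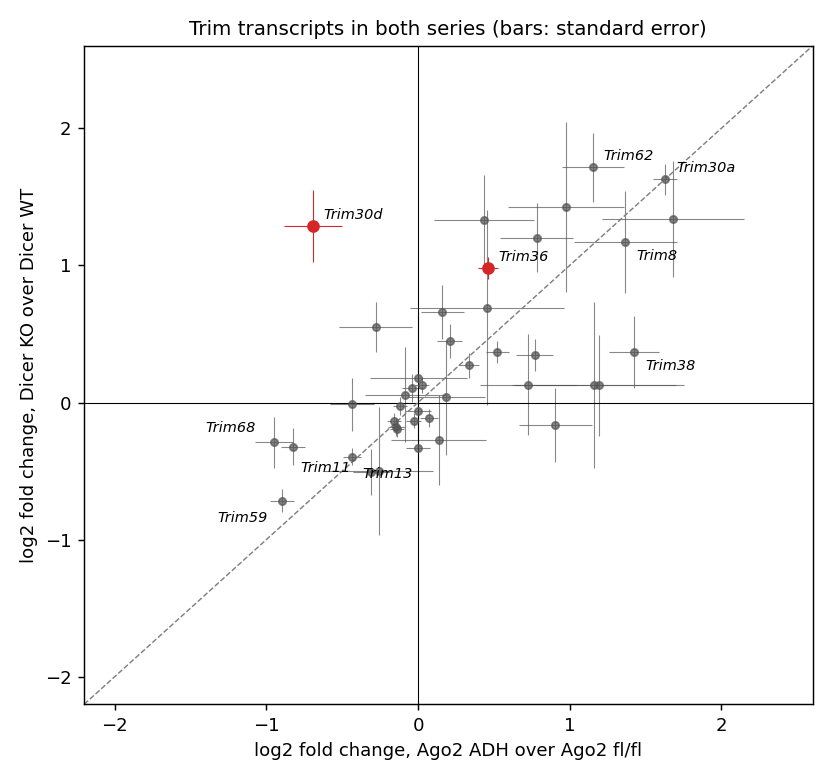
Log2 fold changes of the 42 members tested in both series, Ago2 ADH over Ago2 fl/fl on the horizontal and Dicer KO over Dicer WT on the vertical axis, with standard errors and a dashed line of equal change. The members whose effects differed by test are in red: Trim30d lies at -0.69 and 1.29, and Trim36 at 0.46 and 0.98.

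Grouped by domain and role, with the lists overlapping, the calls fell as follows. For reference, 40.7%, 37.2% and 34.5% of all transcripts were called in Ago2 ADH, Ago2 null and Dicer KO. Of all transcripts, 20.5%, 18.1% and 16.7% were called higher, and 20.1%, 19.1% and 17.8% lower. The lists are short, so their counts are a description. Both transmembrane members, Trim13 and Trim59, fell in each comparison with controls. Of the 3 TIF1 members (Trim24, Trim33, Trim66), 1 fell in each Ago2 mutant, Trim24, and 0 of 3 passed the test in Dicer KO. Of the 4 COS box genes, 2, 2 and 3 were tested in Ago2 ADH, Ago2 null and Dicer KO, and Trim36 was the 1 that rose in each. Of the 3 genes with a MATH, ARF or filamin domain, 2, 3 and 2 were tested and 2, 2 and 1 rose, namely Trim37 in each and Trim23 in the Ago2 mutants.

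The 3 NHL repeat genes, known from neurons and muscle, were tested throughout: Trim2 rose in Ago2 ADH, 0 passed in Ago2 null and Trim3 rose in Dicer KO. Of the 4 members listed as lacking a RING finger (Trim14, Trim16, Trim29 and Trim44; Trim66 is counted above with TIF1), only Trim44 had enough counts, at log2 fold changes of -0.14, -0.12 and -0.18, which did not pass. MuRF genes were tested only in Ago2 null, where 1 was tested and 0 were called. The listed SPRY genes were the largest group, 36 in the files, with Trim60 and Trim75 but not Trim61 among them. Of these, 5 rose and 3 fell of 24 tested in Ago2 ADH, and 4 rose and 4 fell of 26 in Ago2 null. In Dicer KO 6 rose and 0 fell of 24. The same background of 40.7%, 37.2% and 34.5% of all transcripts called applies to these lists.

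Of 14 members linked to antiviral defence or interferon, 7 were tested in each comparison with controls. For reference, 40.7%, 37.2% and 34.5% of all transcripts were called in Ago2 ADH, Ago2 null and Dicer KO, and 20.5%, 18.1% and 16.7% were called higher. With 7 genes, several of them neighbours or copies, the counts are a description. In Ago2 ADH 4 rose (Trim12c, Trim26, Trim30a, Trim38) and 1 fell (Trim30d), in Ago2 null 2 rose (Trim30a, Trim38) and 1 fell (Trim30d), and in Dicer KO 3 rose (Trim6, Trim30a, Trim30d). Of 15 other interferon-stimulated genes in the files, Stat2, Bst2 and Irf9 carried most of the level, at up to 14.6, 16.0 and 11.2 CPM, and most others were under 2. The 15 summed to 36.5 to 39.1 CPM in Ago2 fl/fl, 35.7 to 41.9 in Ago2 ADH, 35.9 to 43.1 in Ago2 null, 30.1 to 31.1 in Dicer WT and 32.3 to 37.6 in Dicer KO. By edgeR's quasi-likelihood test 0 of 6 tested were called in Ago2 ADH, 0 of 7 in Ago2 null, and 1 of 9, Irf9, rose in Dicer KO (log2 fold change 0.93). Ifit1, an interferon-induced RNA-binding protein, did not pass in Ago2 ADH at a log2 fold change of 1.09 (edgeR adjusted p = 0.0253). Of the 5 members that hold the interferon element core in a promoter window and could be tested, 4 rose and 1 fell in Ago2 ADH, 1 rose and 1 fell in Ago2 null, and 2 rose in Dicer KO. The same background applies to these 5 genes, of which Trim30a and Trim30d are copies with near-identical promoter windows. No link between the letters and the changes was tested.

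Leukocyte markers, whose cells express many antiviral Trim genes, were low in every group: Ptprc reached 0.0259 CPM and Lyz2 0.0337 at most, and Adgre1 0.254 in Ago2 ADH against 0.0169 in Ago2 fl/fl. Cumulus and granulosa cell markers summed to 78.7 to 85.6 CPM in Ago2 fl/fl, 70.6 to 74.9 in Ago2 ADH, 59.5 to 64.3 in Ago2 null, 98.3 to 106 in Dicer WT and 81.8 to 86.4 in Dicer KO, with Amh and Foxl2 at no more than 0.277 and 0.143. Most of the sum was Cyp19a1, at 20.5 to 57.7 CPM over all libraries, and Nr5a2, at 26.6 to 40.8. Of the 12, 2 rose and 2 fell of 9 tested in Ago2 ADH, 0 rose and 1 fell of 9 in Ago2 null, and 0 rose and 3 fell of 8 in Dicer KO. Those that rose were the steroid synthesis genes Hsd3b1 and Cyp11a1, by 2.09 and 1.73 on the log2 scale in Ago2 ADH, and Cyp11a1 fell by 2.91 in Dicer KO. Cyp19a1, the aromatase gene, fell by 0.50 in Ago2 ADH and by 0.59 in Ago2 null. Their part in the fall of Trim13, Trim59 and Trim11 was not tested.

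Relatives and partners outside the symbol rule are given beside the same background of 40.7%, 37.2% and 34.5% of all transcripts called. Mid1, a microtubule-associated family member, fell by 0.53, 1.16 and 0.49 on the log2 scale in Ago2 ADH, Ago2 null and Dicer KO. Pml, the organizer of nuclear bodies, fell by 1.11, 0.97 and 1.15 in the same order, while Mid2 and Mefv were too low to test. Compared directly, Mid1 was called higher in Ago2 ADH than in Ago2 null and Pml was not called, against 0.119% of all transcripts called. Of 9 E2 enzymes used with RING ligases, 4 rose and 3 fell in Ago2 ADH, 3 rose and 1 fell in Ago2 null, and 3 rose and 1 fell in Dicer KO. Of 6 partners of TIF1 proteins, 2 rose in Ago2 ADH, 3 rose and 1 fell in Ago2 null, and 2 rose in Dicer KO. Of the 11 oocyte markers, 5 rose and 2 fell, 5 rose and 1 fell, and 1 rose and 3 fell in the same order, and the 1 theca and stroma gene tested, Pdgfra, fell in Ago2 ADH.

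Several members differed between the control groups, which were sequenced apart and are given without a test. Trim11 was at 37.4 to 39.4 CPM in Ago2 fl/fl and 18.05 to 19.996 in Dicer WT, the latter close to its level in the Ago2 mutants, and Dicer KO stood at 12.4 to 18.7 (-0.32 ± 0.14, adjusted p = 0.0583). Trim23 was at 10.03 to 13.2 CPM in Ago2 fl/fl and 20.5 to 23.0 in Dicer WT. Trim38 was at 1.86 to 2.32 and 2.46 to 4.58, and its Dicer KO libraries at 2.89, 4.94 and 5.25 did not pass the test (0.37 ± 0.26, adjusted p = 0.273). For these genes, fold changes in the 2 series start from different control levels.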

How the data were processed

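The deposited values are raw counts of reads per RefSeq transcript, made by the authors with TopHat on mm10 and htseq-count (version 0.6.1 per the submitters' processing notes; TopHat2 2.0.7 there), without strand and in intersection-strict mode, with reads that align to several places set aside. Counting without strand means that reads of the 11 members overlapping an antisense exon cannot be told from that gene's. Symbols were matched through RefSeq (63 members) and GENCODE (1 member). Counts were tested with edgeR 4.0.16 (filterByExpr with a minimum count of 10 and total of 15, TMM factors, quasi-likelihood test, Benjamini-Hochberg adjustment over all transcripts, false discovery rate of 1%) on the libraries of each comparison, or 12 libraries for the interaction, and with DESeq2 1.42.0 as an alternative in R 4.3.3. Scripts were tested on simulated counts. CPM used TMM factors over all 14 libraries, and per-kilobase levels used GENCODE transcript lengths. In each comparison with controls, up to 6 members with the largest called increase and decrease (mean of at least 50 normalized counts) were named. Also named were every member called in the other comparisons, the 6 highest in controls and the Trim12, Trim30, Trim34 and Trim43 copies. The members, gene lists and tests were chosen with earlier results of these data known. Each library is a pool of oocytes from several animals, and the replicates are separate collections by the study's methods. No pair of libraries agreed within sampling noise (chi-square per degree of freedom 6.35 to 14.3). Samples with the same replicate number did not deviate together (correlations from -0.14 to 0.06), so no pairing was used.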

Additional observations from a re-analysis of the deposited data

Results flagged for a closer look

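The Ago2 ADH and Dicer KO effects differed by the interaction test for Trim30d, with a difference of -2.03 on the log2 scale, and for Trim36, with a difference of -0.57. In both cases the value in the Ago2 series was the lower. These differences passed the threshold in all 20 alternative analyses, with ranges of -2.18 to -1.87 for Trim30d and -0.64 to -0.51 for Trim36. Groups of 2 or 3 libraries were too small for a test of outlying samples.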

How the results depend on the processing

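The number of members called was within 1.5 times the reported count under most alternatives. At a false discovery rate of 5%, 20 members were called in Dicer KO and 4 in the difference of the Ago2 ADH and Dicer KO effects. This looser rate counts as 1 of the alternatives throughout, and any call at 1% passes it by definition. With the replicate number as a block, 10 members in place of 16 were called in Ago2 null; the numbers did not pair the samples, and the block gave 15 in Ago2 ADH, 9 in Dicer KO, 2 for the difference of effects and 0 for Ago2 ADH against Ago2 null. Leaving out 1 library at a time gave 11 to 17 calls in Ago2 ADH, 10 to 16 in Ago2 null (10 without Ago2 fl/fl replicate 3 and 10 without Ago2 null replicate 2), 9 to 13 in Dicer KO, 2 to 3 for the difference of effects and 0 throughout for Ago2 ADH against Ago2 null. The sign turned for 3 small values: Trim60 in Ago2 ADH (0.03, and -0.0197 with all 5 groups in 1 fit), Trim75 in Ago2 ADH (-0.0704 to 0.00987 on leaving out 1 library, above 0 without Ago2 ADH replicate 2) and Trim27 in Dicer KO (-0.0658 to 0.0314, above 0 without Dicer KO replicate 3). The cause was not tested, beyond the smaller number of samples. Other transcripts of the same gene gave the same call in 17 of 17, 17 of 18 and 17 of 17 cases in Ago2 ADH, Ago2 null and Dicer KO. The exception was Trim30d in Ago2 null, whose other transcript did not pass (-0.75, edgeR adjusted p = 0.0106). Transcripts of a gene count largely the same reads, so their agreement is no independent support. Members under about 10 counts per library could not be tested.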
